A study of Mus musculus with 5 samples.

Results

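Ccl2, Ccl7, Ccl8 and Ccl11 are CC chemokine genes of the mouse, and they were taken by their symbols from every deposited count table. They are 4 of the 20355 genes in the tables and held 5415 of the 10229795 unique molecular identifiers (UMIs, counted mRNA molecules) in the cells retained here. Ccl2 had 2413 UMIs, Ccl7 1879, Ccl8 553 and Ccl11 570. The group had been put forward as stromal chemokines, and this was checked against the cell classes in the tables. For Ccl11 nearly all UMIs were in stromal cells, whereas 52.2% of the Ccl7 UMIs were in macrophage-like cells.

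CC chemokines are small secreted proteins that guide leukocytes through G protein-coupled receptors. CCL2 and CCL7 act on CCR2 and draw inflammatory monocytes out of the blood, CCL7 also binds CCR1 and CCR3, mouse CCL8 acts on CCR8, and CCL11 (eotaxin) draws eosinophils through CCR3. Eosinophils and monocyte-derived macrophages are standing residents of the healthy gut wall, and Ccl2 and Ccl7 are textbook targets of NF-kB in fibroblasts and macrophages.

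The data are Drop-seq libraries of single cells from the colonic mesenchyme of untreated C57/BL6 mice aged 10 weeks. The epithelium was stripped with EDTA and DTT, and the remaining tissue was digested with Collagenase XI and Dispase. The 5 collections form 2 biological replicates, 1A and 1B of the first and 2A, 2B and 2C of the second. The number of animals behind each replicate is not in the labels. All mice belong to 1 group, so the comparisons run between cell types of the same animals and no condition was varied. With 2 replicates, a p-value measures the spread between these sums, which may be partly technical.

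Of 7935 barcodes, 1263 had under 300 detected genes and 667 of the others had over 10% mitochondrial UMIs, which left 6005 cells with a median of 1331 UMIs and 758 genes. The collections kept 864 to 1733 cells and 1461337 to 2953455 UMIs. Scrublet marked 0.383% of the barcodes as doublets, too few for a working call, and no barcode was removed on that ground. In all, 6 barcode sequences occurred in more than 1 collection, 5 of them in both 2A and 2B. Clusters were named from marker genes and are called by the cell type they resemble. The chemokines, their receptors and the NF-kB list given below were kept out of the clustering. The 10 classes with enough cells were fibroblast-like (3125 cells), blood endothelial-like (578), macrophage-like (481), T, natural killer and innate lymphoid-like (393), enteric glia-like (300), smooth muscle-like (246), pericyte-like (240), B-like (234), lymphatic endothelial-like (164) and dendritic-like (124). Plasma-like (42 cells), enteric neuron-like (28), proliferating (28) and epithelial-like (22) cells were too few for the tests and are left out of the orders below. They held at most 10 UMIs of a member, with the highest means in proliferating cells (275 CPM of Ccl2 and 214 CPM of Ccl7 on 9 UMIs each). Levels are CPM, the UMIs of a gene scaled to the total UMIs of its class, as mean ± SD of the 2 biological replicates. Each UMI is 1 captured mRNA 3′ end, so levels were not divided by gene length.

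The 4 genes lie on the forward strand of 1 cluster on chromosome 11 in GRCm38 (GENCODE M21), where 81.229 kb hold them together with Ccl12. In chromosomal order these are Ccl2 at chr11:82035571-82037453, Ccl7 at chr11:82045712-82047525, Ccl11 at chr11:82057823-82062955, Ccl12 at chr11:82101845-82103400 and Ccl8 at chr11:82115185-82116799. Each of the 4 members has 3 exons. Gm17268 overlaps Ccl2, so reads of the overlap cannot be assigned with certainty. The longest stretch of transcript sequence shared by any pair of members is 23 bases, between Ccl2 and Ccl7. The promoter is shown for Ccl8, the only member with an entry in the RefSeq promoter table used here (GRCm38.p6), because this is the member that parted from Ccl2 and Ccl7 among fibroblasts. The stretch is chr11:82114935-82115234 on the forward strand, 250 bases before to 50 after the transcription start, and capitals mark a TATA box (TATAAAA) beginning 32 bases before the start.
Ccl8 promoter: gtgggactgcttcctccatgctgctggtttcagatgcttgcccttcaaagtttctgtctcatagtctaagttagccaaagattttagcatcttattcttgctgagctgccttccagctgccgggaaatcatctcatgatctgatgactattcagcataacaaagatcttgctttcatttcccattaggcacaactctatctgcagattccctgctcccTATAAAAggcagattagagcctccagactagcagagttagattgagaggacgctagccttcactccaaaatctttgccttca
TATAAAA is present in 5.48% of 32851 mouse promoters of this length. On either strand, the window held no AP-1 motif (TGANTCA, in 7.81% of promoters), no STAT motif (TTCNNNGAA, 8.3%), no STAT6 motif (6.95%), no NF-kB motif (8.46%), no C/EBP motif (TTGCNNAA, 10.8%) and no GC box (GGGCGG, 35.7%), which says only that these letters are not in this window.

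Among the monocyte attractants, Ccl2 was highest in macrophage-like cells, followed by fibroblast-like and glia-like cells. In macrophage-like cells it stood at 408 CPM in 1A, 347 in 1B, 827 in 2A, 439 in 2B and 917 in 2C. In fibroblast-like cells it stood at 468, 296, 339, 273 and 373 CPM in the same order. The collections of these classes overlapped, and the macrophage-like cells exceeded the fibroblast-like cells in 4 of 5 collections. The means were 564 ± 264 CPM in macrophage-like and 361 ± 44.2 CPM in fibroblast-like cells (SD, n = 2). The gap was 0.62 ± 0.18 on the log2 scale (SE, edgeR's quasi-likelihood test, Benjamini-Hochberg adjusted p = 0.00171). It was absent in replicate 1, where the levels were 378 and 392 CPM, and without replicate 2 the log2 difference was -0.041. Enteric glia-like cells held 186 ± 110 CPM, with a range over collections from 94.3 in 1B to 402 in 2A. The other tested classes lay at or below the 55.6 ± 18.6 CPM of pericyte-like cells.

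Ccl7 differed from Ccl2 in being mainly a macrophage transcript. In macrophage-like cells it stood at 606 CPM in 1A, 530 in 1B, 1643 in 2A, 727 in 2B and 1533 in 2C. Fibroblast-like cells had 155, 142, 178, 143 and 256 CPM, so the lowest macrophage value lay above the highest fibroblast value. The means were 956 ± 548 and 171 ± 30.5 CPM, a log2 difference of 2.40 ± 0.19 (adjusted p = 4.03e-35 in the edgeR test). Pericyte-like cells followed with 41.5 CPM, and no tested class below that exceeded 25.1 CPM.

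Ccl8, the CCR8 ligand of the mouse, was nearly even between the top classes. Macrophage-like cells had 117 ± 11.8 CPM and fibroblast-like cells 88.7 ± 22.5 CPM. The collections ranged from 61.8 to 162 CPM in the former and from 64.7 to 110 CPM in the latter, and these ranges overlapped. The log2 difference of 0.45 ± 0.24 did not pass the threshold (adjusted p = 0.0930). It passed when 1B, 2B or replicate 2 was left out (0.67, 0.62 and 0.74). In every other tested class Ccl8 was at or below 8.6 CPM, and dendritic-like cells had no UMI.

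Ccl11, the eosinophil attractant, was a stromal transcript without a macrophage share. Pericyte-like cells had 256 CPM in 1A, 203 in 1B, 155 in 2A, 231 in 2B and 164 in 2C, and fibroblast-like cells 102, 89.2, 129, 117 and 109 CPM. Every pericyte value lay above every fibroblast value, but the pericyte values rest on only 53 UMIs in 35 cells. The log2 difference of 0.69 ± 0.29 missed the threshold (adjusted p = 0.0692). It passed under some alternatives, among them the one where the limit on mitochondrial UMIs was dropped and the barcodes were clustered anew. The difference was then 1.95 (adjusted p = 1.70e-12), with 511 and 461 CPM in pericyte-like cells of the respective replicates. That class held 208 cells rather than 240, so it was not the same set of cells. Smooth muscle-like cells followed with 15.4 CPM. Macrophage-like cells held 1 Ccl11 UMI against 492 in fibroblast-like cells, a ratio of 110 in favour of the latter (95% exact interval 19.7 to 4367, counting error only). No UMI was found in dendritic-like or glia-like cells.

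**Figure D1:**
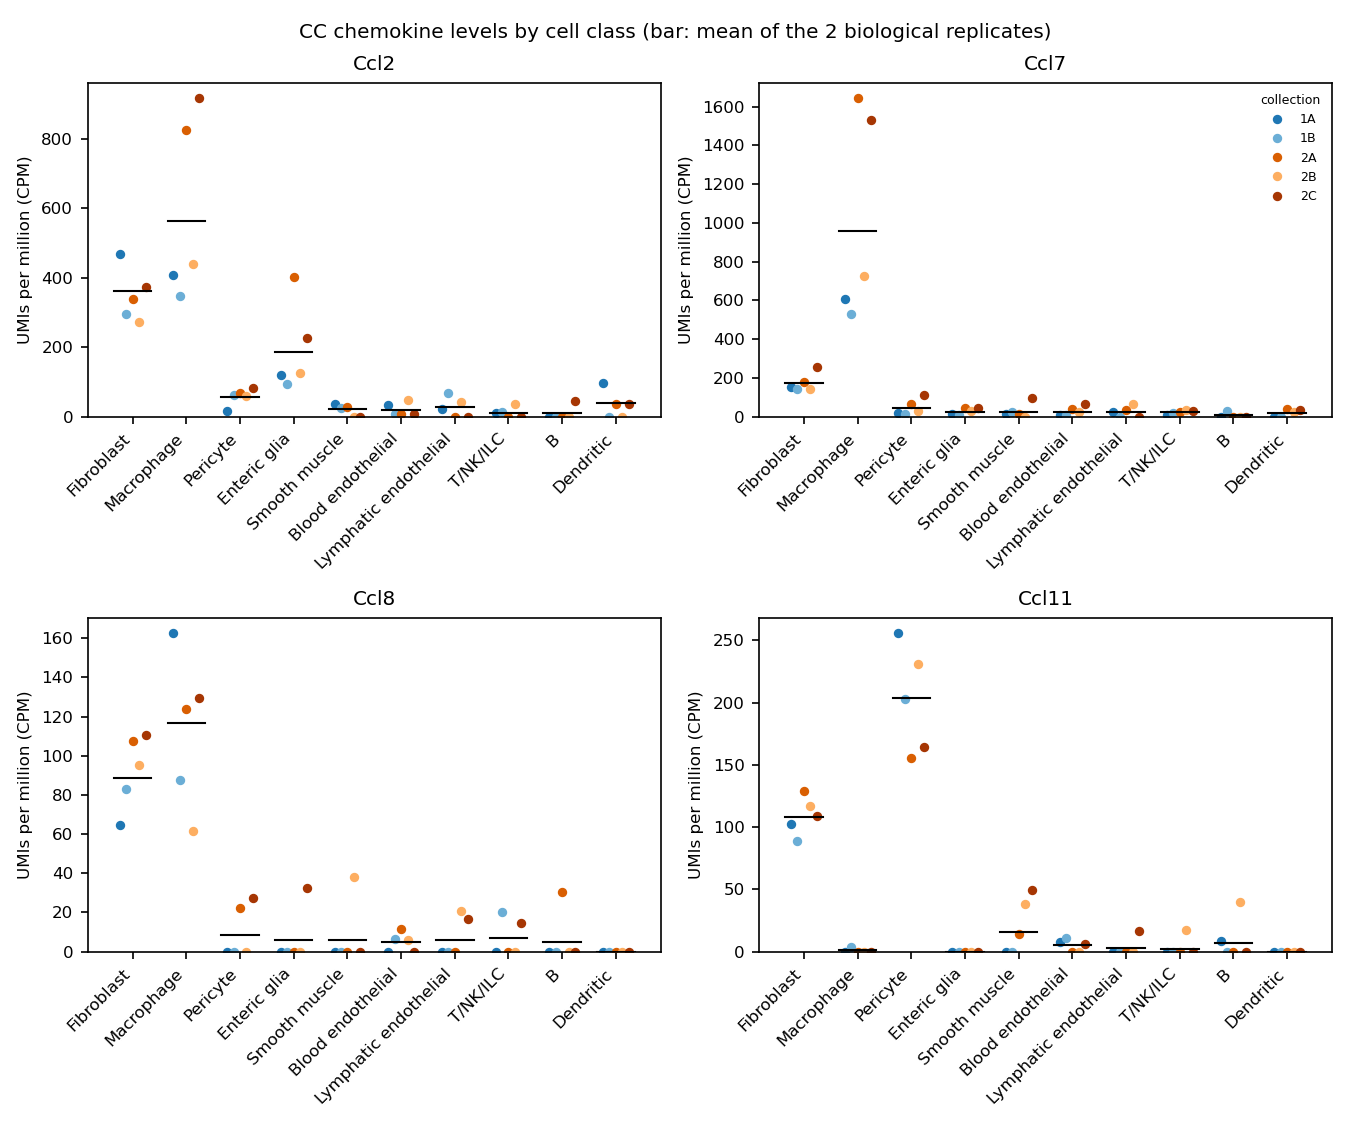
Levels of the 4 genes (CPM) in the 10 tested cell classes, with 1 point per collection and the mean of the biological replicates as a bar. Ccl2, Ccl7 and Ccl8 stand highest in macrophage-like and fibroblast-like cells, and Ccl11 in pericyte-like (203 CPM) and fibroblast-like cells (108 CPM).

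Each class was tested against the other 9 together, with every class given equal weight on the log scale. All 4 genes were higher in fibroblast-like cells, at adjusted p from 1.63e-94 for Ccl2 to 7.16e-45 for Ccl8 (edgeR). The fitted log2 difference was 3.40 ± 0.16 for Ccl2 and 2.67 ± 0.19 for Ccl7. Of 7012 genes tested, 31.4% were higher in fibroblast-like cells by the same rule, so being called there is common. In macrophage-like cells 3 of the 4 were higher, where 28.6% of genes were, with log2 differences of 4.09 ± 0.17 for Ccl2 and 5.34 ± 0.16 for Ccl7. In pericyte-like cells Ccl11 was higher (adjusted p = 2.47e-37, 14.4% of genes higher), and in glia-like cells Ccl2 was (2.19 ± 0.25, adjusted p = 1.80e-17, 24.1% of genes higher). No fitted value is given for Ccl8 and Ccl11 here, since a class at 0 UMIs sets its size. In the order of levels, Ccl2 and Ccl7 were higher in macrophage-like than in fibroblast-like cells (28.4% of genes were), and Ccl2 in fibroblast-like than in glia-like cells by 1.08 ± 0.22 (adjusted p = 7.99e-06, 20.6% of genes). The latter lost its call with DESeq2 (1.04) and without replicate 1 (0.49, adjusted p = 0.123), and in 2A the glia-like cells were the higher ones. Ccl11 was not called between pericyte-like and fibroblast-like cells, where 9.5% of genes were higher in the former. Glia-like cells exceeded pericyte-like cells in Ccl2 by 1.91 ± 0.40 (adjusted p = 2.64e-05). Fibroblast-like cells exceeded the class next in order in Ccl7 by 2.43 ± 0.40 (pericyte-like, adjusted p = 2.97e-08), in Ccl8 by 3.69 ± 0.69 (pericyte-like, 1.27e-06) and in Ccl11 by 2.95 ± 0.52 (smooth muscle-like, 3.83e-07). Below these, neighbours in the order did not differ beyond their spread. Clusters and sums come from the same cells, which makes the p-values smaller than in independent cells.

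Summed over cells, fibroblast-like cells held most UMIs of 3 of the 4 genes. They held 67.8% of the Ccl2 UMIs, 41.5% of Ccl7, 73.4% of Ccl8 and 86.3% of Ccl11. Macrophage-like cells held 24.0%, 52.2% and 21.5% of the first 3, and pericyte-like cells 9.30% of Ccl11. These shares also depend on class size, since the classes had 3125, 481 and 240 of the 6005 retained cells, in the order named. Sums of 9 defining markers per class, 8 of the macrophage list being in the tables, gave the extent of mixing. Macrophage markers took 0.00769% and 0.0110% of UMIs in fibroblast-like cells of the respective replicates, against 0.764% and 0.855% in macrophage-like cells. Fibroblast markers took 0.127% and 0.164% of UMIs in macrophage-like cells, against 3.27% and 3.05% in fibroblast-like cells.

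The shares of cells with a UMI gave the same order. After thinning every cell to 800 UMIs, Ccl7 was detected in 31.9% of macrophage-like cells (95% exact binomial interval 27.3 to 36.7%) and 6.86% of fibroblast-like cells. Ccl2 was detected in 24.1% and 10.3%, and Ccl8 in 7.85% and 5.35%. Ccl11 was detected in 10.7% of pericyte-like and 7.18% of fibroblast-like cells. Among B-like cells, which are not a known source, the shares were 0.633% for Ccl2 and Ccl8 and 1.27% for Ccl7 and Ccl11. Without thinning, at a median of 1053.5 UMIs in B-like cells, Ccl7 was found in 42.0% of macrophage-like and 9.41% of fibroblast-like cells, and Ccl2 in 35.3% and 13.4%. Thinning left out 86 macrophage-like, 619 fibroblast-like, 90 pericyte-like and 76 B-like cells with fewer UMIs.

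Clustering the macrophage-like cells alone gave clusters that differed in the levels of Ccl2 and Ccl7. Cluster M1 (255 cells) was raised in 3 of 6 markers of resident macrophages, Lyve1 (345 CPM), Cd163 (175 CPM) and Folr2 (118 CPM). Its leading gene was F13a1 (663 CPM), which also stands on the monocyte list, and the resident marker Timd4 was lower in M1 (41.6 CPM) than in M2 (76.7 CPM). Cluster M2 (208 cells) carried the antigen presentation gene H2-Ab1 (10958 CPM) and the cytokine gene Il1b (1437 CPM). A remaining cluster of 18 cells, M3, was not named. Fibroblast markers took 1.25% and 0.903% of its UMIs in the respective replicates beside macrophage markers at 0.489% and 0.655%. It stayed in the macrophage-like class with 33 Ccl7 and 19 Ccl2 UMIs, and doublets among its cells were not tested.

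In M1, Ccl7 stood at 1513 CPM in 1A, 1277 in 1B, 3293 in 2A, 1348 in 2B and 2674 in 2C. In M2 it stood at 68.7, 89.8, 359, 216 and 103 CPM. Every M1 collection was above every M2 collection, and the log2 difference was 3.64 ± 0.18 (adjusted p = 5.03e-13, edgeR). Ccl2 did likewise, with 757 to 1815 CPM in M1 against 74.0 to 168 CPM in M2 and a log2 difference of 3.09 ± 0.20 (adjusted p = 3.01e-11). Of 3891 genes tested, 9.33% were higher in M1, and 3 of the 4 members were.

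The Ccl8 difference between M1 and M2 was less certain. It passed the threshold at 1.41 ± 0.47 (adjusted p = 0.0395, edgeR), with 130 and 213 CPM in M1 of the respective replicates and 120 and 7.98 CPM in M2. M2 thus matched M1 in replicate 1 only, and 3 cells held 31 of the 40 Ccl8 UMIs of M2. Without the replicate block the adjusted p was 0.109 at a log2 difference of 1.31, and without replicate 2 the difference was 0.057. Ccl11 had no UMI in M1 and 1 in M2. The 255 cells of M1, out of 6005, held 45.9% of all Ccl7 UMIs and 20.3% of all Ccl2 UMIs. Their median depth was lower than that of M2, 1389 against 2499 UMIs, and after thinning 52.0% of M1 cells had a Ccl7 UMI against 8.84% of M2 cells. Levels of Ccr2, the CCL2 and CCL7 receptor that marks cells recently derived from monocytes, ran the other way, with 60.0 CPM in M2 (33 UMIs) and 2.01 CPM in M1 (1 UMI).

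**Figure D2:**
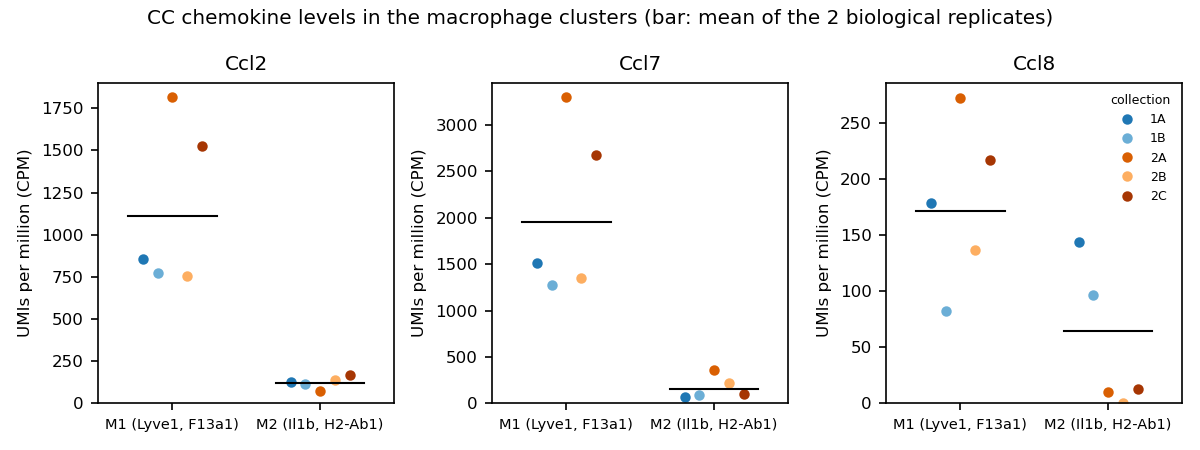
Levels of the members (CPM) in macrophage-like clusters M1 and M2, with 1 point per collection and the mean of the 2 biological replicates as a bar. Ccl2 and Ccl7 are higher in M1 in all 5 collections, whereas the Ccl8 points of M1 and M2 overlap.

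Fibroblast-like cells clustered alone gave 5 clusters. F1 (1099 cells) and F3 (556) carried markers of the lamina propria such as Ces1d and C1qtnf3, and F2 (597) carried the adventitial markers Has1, a hyaluronan synthase gene, Pcolce2, a gene of collagen processing, and Pi16. F4 (545) carried the subepithelial markers Plau and Nrg1, and F5 (328) the telocyte-type markers Rbp4 and Sox6. F3 differed from the others in a share of UMIs from immediate-early and heat-shock genes of 1.63% and 1.53% in the respective replicates, where F1 had 4.23% and 4.22%. In F3, 17 of the 18 genes of that list were lower and none higher (median log2 difference -1.87, against 0.030 over all genes tested). These genes can be induced by tissue dissociation, and their part in the differences of F3 was not tested. No cluster matched F3 when these genes were kept out of the clustering, nor under the other mitochondrial limits, without Scrublet-marked barcodes or with clusters and sums from separate UMIs.

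Ccl2 and Ccl7 peaked together in the adventitial-type cluster F2. Ccl2 in F2 stood at 1197 CPM in 1A, 458 in 1B, 1267 in 2A, 748 in 2B and 1000 in 2C. In F4, the next in order, it stood at 382, 391, 128, 188 and 449 CPM, so each collection was higher in F2. The means were 935 ± 110 and 321 ± 92.1 CPM (log2 difference 1.43 ± 0.14, adjusted p = 4.28e-19, edgeR). Ccl7 in F2 stood at 449, 399, 579, 447 and 973 CPM, and in F4 at 83.1 to 103 CPM, a log2 difference of 2.46 ± 0.18 (adjusted p = 6.79e-29). Both genes were thus higher in F2 than in F4, as were 11.1% of the 7343 genes tested. Against the mean of the other clusters, F2 exceeded by 3.78 ± 0.14 in Ccl2 and 3.49 ± 0.15 in Ccl7, and by 3.39 and 3.08 with F3 left out. F2 held 942 of the 1635 Ccl2 UMIs and 542 of the 780 Ccl7 UMIs of the fibroblast-like cells. Macrophage markers took 0.00761% and 0.0127% of the UMIs of F2, near their share in all fibroblast-like cells.

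Ccl8 had the opposite distribution, lowest in F2 and highest in the lamina propria-type clusters. It stood at 135 CPM in 1A, 172 in 1B, 149 in 2A, 164 in 2B and 254 in 2C in F3, and at 7.9 to 40.1 CPM in F2. No F3 collection overlapped with F2. F2 was lower than the mean of the other clusters by a log2 value of -2.23 ± 0.31 (adjusted p = 1.83e-10) and F3 higher by 1.46 ± 0.21 (adjusted p = 1.50e-09). F1 stood at 114 ± 44.9 CPM, and the step from F3 to F1 did not pass the threshold (0.40 ± 0.21, adjusted p = 0.306). F2 lost its call when the mitochondrial limit was dropped (-0.61) or Scrublet-marked barcodes were left out (-0.88).

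Ccl11 was shared by F1, F2 and F3 and nearly missing elsewhere. The means were 148 ± 31.2, 166 ± 47.0 and 137 ± 28.9 CPM, against 7.87 CPM in F4 (8 UMIs), and F5 had no UMI. Neither F2 against F1 (0.25 ± 0.19, adjusted p = 0.357) nor F1 against F3 (0.29 ± 0.21, adjusted p = 0.535) passed the threshold. F2 exceeded F5 at least 19.97-fold, taking 3 counts over the whole of F5 as its floor. In the collections of F4 Ccl11 ran from 0 to 13.3 CPM, below the 63.9 CPM that was the lowest value of F1, F2 and F3.

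In F2 3 of the 4 genes were higher (20.1% of genes were) and Ccl8 was lower (13.4% were). In F3, Ccl8 and Ccl11 were higher (10.3% of genes, Ccl11 at -0.42 and not called from 200 genes per barcode), and Ccl2 (-2.42 ± 0.41) and Ccl7 (-2.38 ± 0.32) were lower (11% of genes). F1 and F3 share state markers, and Ccl2 was 2.83 ± 0.27 higher in F1 (adjusted p = 8.79e-20), as were 4.63% of genes. F1 was also higher than the mean of the other clusters in Ccl2, Ccl8 and Ccl11 (5.68% of genes), and F4 in Ccl2 (1.99 ± 0.18) and Ccl8 (0.60 ± 0.23, adjusted p = 0.0381, 19.1% of genes). The values of Ccl2 in F1 and of Ccl2, Ccl7 and Ccl8 in F4 changed direction under other settings of clustering or filtering. F5 was lower in Ccl2 (-4.47 ± 0.43) and Ccl7 (-1.30 ± 0.34, adjusted p = 0.00251), as were 7.83% of genes. The Ccl7 call of F5 was lost without 2A (-0.95), without replicate 2 (-0.26) and at the other resolution (-0.91). Because F5 lacks Ccl11, each other cluster's Ccl11 call is measured against a mean that includes a 0.

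The clustering of all cells resolved the fibroblast-like cells more finely, into 7 clusters, and showed that F4 joined cells of unlike chemokine content. These 7 were used as an alternative chosen after the values were seen. F4 was made up of 294 cells of cluster S9 and 212 of cluster S6. S6 (368 cells) was marked by Saa3, an acute-phase protein gene, Niacr1, a niacin receptor gene, and Ptgs2, the gene of an inducible prostaglandin synthase. S9 (304 cells) was marked by Nrg1, an epidermal growth factor family ligand, and Plau, a protease gene.

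Ccl2 in S6 stood at 648 CPM in 1A, 678 in 1B, 326 in 2A, 312 in 2B and 341 in 2C. In S9 it stood at 51.2, 68.1, 39.6, 77.1 and 464 CPM, below S6 in every collection but 2C. In S9, 3 cells held 42 of the 67 UMIs. The log2 difference was 1.98 ± 0.27 (adjusted p = 9.05e-09, edgeR), and it ran from 0.81 to 3.54 when collections or replicates were left out. Ccl7 was higher in S6 by 2.98 ± 0.41 (adjusted p = 6.06e-09), with 177 ± 24.2 against 22.5 CPM.

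The Ccl8 gap between S6 and S9 was the widest of the 3. Its values in S6 were 130, 182, 168, 218 and 146 CPM, and S9 had 2 UMIs, both in 2C. The log2 difference was 5.35 ± 0.55 (adjusted p = 1.62e-13), and the ratio of the summed levels was 44.5 (95% exact interval 12.0 to 372, counting error only). So 3 of the 4 members were higher in S6 than S9, where 5.27% of the 5840 genes tested were. S9 had no Ccl11 UMI, whereas S6 had 47.3 CPM.

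S1, which shares 575 cells with F2, stood above S6 in Ccl2 by 0.87 ± 0.19 (adjusted p = 1.35e-04) and in Ccl7 by 1.58 ± 0.20 (adjusted p = 5.17e-10), as 11% of genes did. Both calls were lost with DESeq2 (adjusted p = 0.676 and 0.291) and that of Ccl2 also without replicate 2 (0.27). In 1B the order of Ccl2 was reversed, 467 CPM in S1 and 678 CPM in S6. S6 in turn stood above S0, the lamina propria-type cluster led by Ces1d and Mfap4 (644 cells), by 1.61 ± 0.23 in Ccl2 (adjusted p = 1.43e-08). Ccl8 stood at 165 ± 16.3 CPM in S6 and at 173 ± 26.6 CPM in S5 (395 cells marked by Osr1 and Stmn2). The fitted log2 difference of S5 against S6 was -0.17 ± 0.24 and did not pass the threshold (adjusted p = 0.686). Ccl11 was highest in S0, at 236 CPM in 1A, 232 in 1B, 373 in 2A, 245 in 2B and 238 in 2C. S1 followed at 158 ± 45.6 CPM, a step of 0.59 ± 0.19 (adjusted p = 0.0112, where 12.8% of genes were higher in S0), and S4 at 102 ± 35.1 CPM. The step from S0 to S1 lost its call in 5 of 12 alternatives, at 0.50 to 0.60 with adjusted p up to 0.302. These were DESeq2, no filter on low counts, and leaving out 1B, 2A or replicate 1. S1 exceeded S9 in Ccl11 at least 28.0-fold, with the floor of 3 counts over S9. By mean level, S1 stood first for Ccl2 and Ccl7, S5 and S6 for Ccl8, and S0 for Ccl11.

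**Figure D3:**
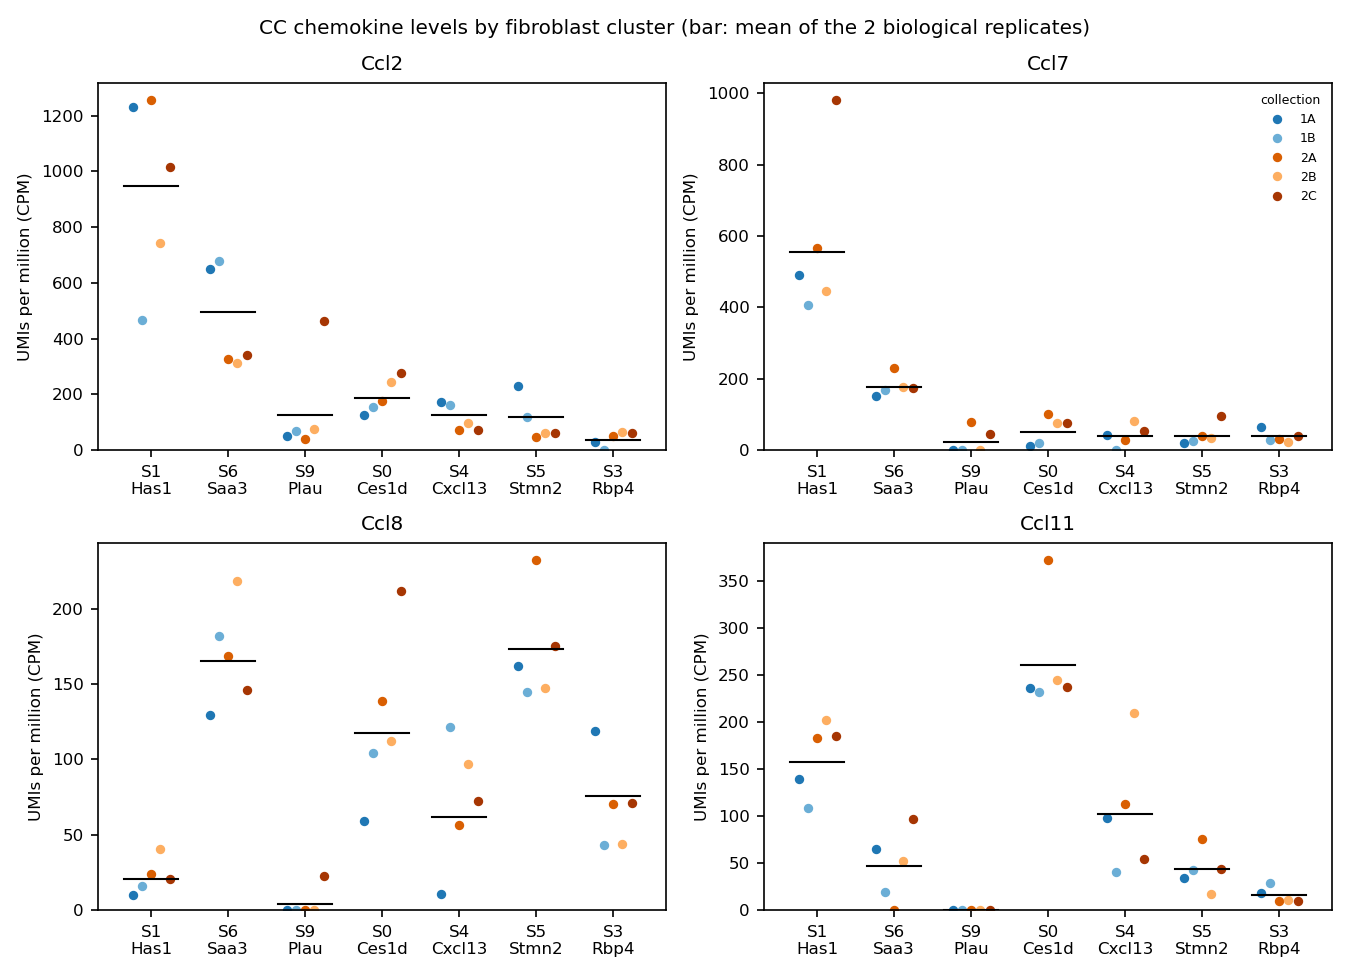
Levels of the 4 genes (CPM) in the 7 finer fibroblast-like clusters, each labelled with a marker gene, with 1 point per collection and the mean of the 2 biological replicates as a bar. Ccl2 and Ccl7 peak in S1 (948 and 555 CPM), Ccl8 in S5 and S6 (173 and 165 CPM) and Ccl11 in S0 (260.5 CPM), and S9 is low except for Ccl2 in 2C.

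The levels of Ccl2 and Ccl7 were set beside the summed level of an NF-kB list (16 genes, among them the inhibitor gene Nfkbia and the adhesion molecule gene Icam1). The list took 1.52% and 1.39% of UMIs in S9 of the respective replicates, 1.31% and 1.04% in S6, and 0.549% and 0.640% in S1. In the other finer clusters it took 0.234% to 0.404%. S9, highest for the list, stood at 125 CPM of Ccl2, below S1, S6 and S0, and had the lowest mean of Ccl7 (22.5 CPM), and S1, highest in both genes, was the third for the list. The Ccl2 step from S0 to S9 did not pass the threshold (0.37 ± 0.31, adjusted p = 0.387, edgeR). The summed level leans on Nfkbia, with 7219 CPM in S9 and 2835 CPM in S1. Counted by gene, 12 of the 15 tested were higher in S9 (19.2% of all genes) and 11 in S6 (11.7%). In S1, 10 were higher and 1 lower (21.5% and 14.2% of all genes). S3 was lowest for the list and for Ccl2 (37.7 CPM). In the 5-cluster division, 15 of the 15 list genes tested were higher in F4 (median log2 difference 1.76), 11 were higher and 1 lower in F2 (median 0.83), and none was higher and 13 lower in F3 (median -1.46). The medians over all genes tested were 0.00098, -0.012 and 0.030. Of 10 tested receptors of inducing cytokines, such as those of TNF and IL-1, 6 were higher in F4 (median 0.62, 19.1% of all genes), and 3 were higher and 1 lower in F2 (median -0.063), near the 20.1% and 13.4% of all genes. In F4, Nfkbia stood at 6942 ± 471 CPM, Ier3, an early-response gene, at 3524 ± 148 CPM, Icam1 at 589 ± 89.8 CPM and Vcam1, a leukocyte adhesion gene, at 458 ± 174 CPM. Cxcl1, a neutrophil attractant, stood at 4042 ± 588 CPM in F4 and 3167 ± 565 CPM in F2, and at 231 ± 54.1 CPM in F3. Il6, a cytokine gene of the list, was higher in F2 than in the mean of the other clusters by 3.11 ± 0.19, with 285 ± 72.9 CPM in F2 and 89.5 ± 5.96 CPM in F4.

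**Figure D4:**
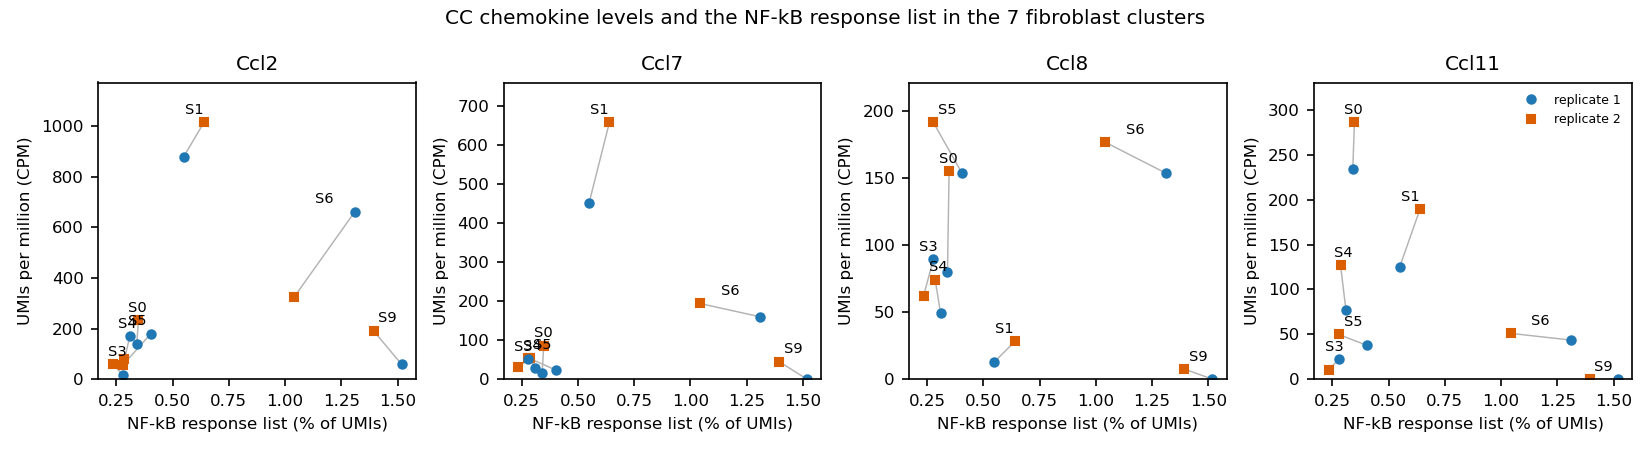
Level of each member (CPM) against the share of UMIs from the NF-kB list (%) in the 7 finer fibroblast-like clusters, with a circle for replicate 1 and a square for replicate 2 of each cluster, joined by a line. S9 lies farthest right (1.52% and 1.39%) with low Ccl2, Ccl7, Ccl8 and Ccl11, and S1 has the highest Ccl2 and Ccl7 at 0.549% and 0.640%.

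UMIs of Ccl2 and Ccl7 were spread unevenly over the cells of F2. In F2, 154 of 597 cells had a Ccl2 UMI, and the 10 cells with most held 43.7% of the 942 UMIs, with 72 in the highest cell. Ccl7 was found in 158 cells of F2, and the 10 highest held 31.4%. By contrast, in all fibroblast-like cells Ccl11 was found in 352 cells with at most 10 UMIs each, and the top 10 held 10.4%. In M1, Ccl7 was found in 158 of 255 cells, and the 10 highest held 28.0% of 863 UMIs. The glia level of Ccl2 rested on 34 of 300 cells with 96 UMIs, of which 61.5% were in 10 cells. The 10 highest Ccl2 cells of F2 came from all 5 collections.

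**Figure D5:**
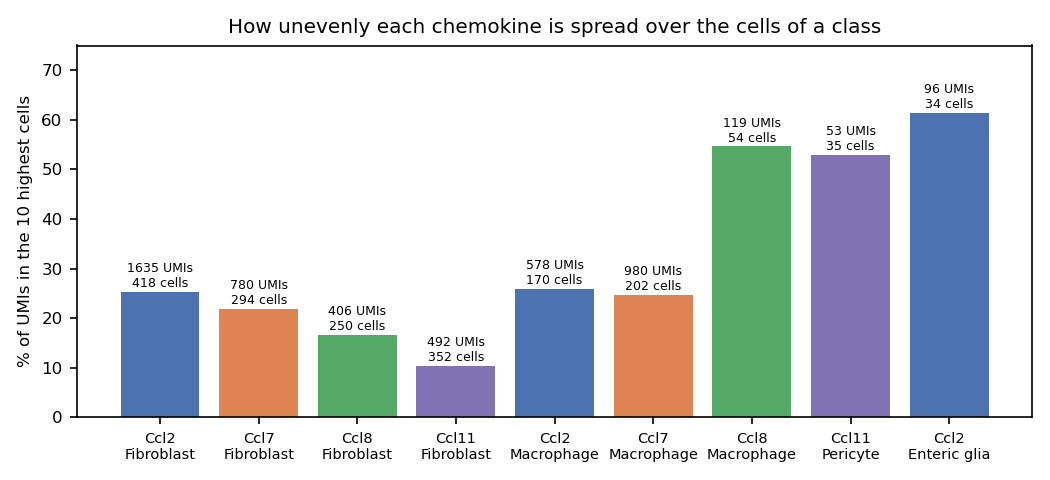
Share of a gene's UMIs (%) held by the 10 cells with most of them, as 1 bar per gene and cell class, with the number of UMIs and of cells with a UMI above it. Ccl11 in fibroblast-like cells is lowest at 10.4%, and Ccl2 in glia-like cells highest at 61.5%.

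Ccl2 and Ccl7 were often detected in the same cells, and Ccl8 less uniformly with them. After thinning to 800 UMIs, Ccl7 was found in 21.8% and 30.1% of fibroblast-like cells with a Ccl2 UMI in the respective replicates, and in 4.32% and 4.98% of those without. Within F2 alone the shares were 34.6% and 57.1% against 12.1% and 11.9%. Within M1 they were 59.3% and 73.9% against 41.9% and 42.9%. Ccl8 was found in 4.84% and 6.77% of the fibroblast-like cells with Ccl2 and in 4.13% and 6.33% of those without. Within F4 the shares were 10.7% and 13.04% with Ccl2 against 3.4% and 3.6% without, on 3 cells with both genes in each replicate. In macrophage-like cells Ccl8 was found in 11.3% and 16.4% of cells with Ccl7 against 6.5% and 2.6% of those without. In M1 alone these shares were 9.52% and 19.7% against 8.51% and 6.25%, so they were close in replicate 1. In fibroblast-like cells, Ccl11 was found in 6.45% and 15.8% of cells with Ccl2 against 7.51% and 5.997% of those without. These differences had opposite signs in the replicates.

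Transcripts of the receptors lay mainly in leukocytes, and those of the decoy receptors in endothelium. Ccr1 was highest in macrophage-like cells (418 ± 24.2 CPM) and dendritic-like cells (295 ± 31.3 CPM). Ccr2 was highest in the lymphoid class of T, natural killer and innate lymphoid-like cells (246 ± 15.7 CPM), with 33.3 ± 7.71 CPM in macrophage-like cells. Ccr8 reached 28.9 CPM in the same lymphoid class on 16 UMIs. The scavenging receptor genes were divided by vessel type, Darc (Ackr1) at 104 ± 33.7 CPM in blood endothelial-like cells and Ackr2 at 80.7 ± 13.9 CPM in lymphatic endothelial-like cells.

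The cells that CCL11 attracts were not seen. Ccr3, the eosinophil receptor gene, had 1 UMI in all retained cells. Of 9 eosinophil markers, 4 were in the tables with 20 UMIs in all, and no cell had 3 or more. An absence from these droplets does not show absence from the tissue. The monocyte marker Ly6c2 was highest in blood endothelial-like cells (43.0 CPM) and had 0 CPM in M1 and 3.58 CPM in M2. Other genes of the monocyte list were present there, Plac8 at 43.9 and 38.6 CPM, Fn1 at 57.7 and 54.9 CPM and Vcan at 13.9 and 12.3 CPM. Of 6 genes of this list tested, 4 were higher in fibroblast-like cells (31.4% of all genes). In macrophage-like cells 2 were higher and 1 lower (28.6% and 14% of all genes).

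The other CC chemokines tested were leukocyte rather than fibroblast transcripts, apart from Ccl21a of lymphatic endothelial-like cells. Of 15 such genes in the tables, 8 were tested. In dendritic-like cells 7 were higher (median log2 difference 3.90, against -0.13 over all genes, of which 18.3% were higher). Ccl22, a gene of this list, was also among the markers that named the dendritic-like class, so the list and that name are not independent. In macrophage-like cells 6 were higher (median log2 difference 4.74, against 0.024 over all genes, of which 28.6% were higher). None was higher in fibroblast-like cells, where 2 were lower (median -0.89, against 0.14 over all genes, of which 13.3% were lower). Ccl3, a CCR1 ligand, stood at 1862 ± 18.9 CPM in macrophage-like and 29.1 ± 6.19 CPM in fibroblast-like cells, and Ccl4, another inflammatory chemokine, at 1097 ± 259 CPM in macrophage-like cells. Ccl12, which lies between Ccl11 and Ccl8 and is a CCR2 ligand, had 49 UMIs in macrophage-like cells (48.1 CPM) and 3 in fibroblast-like cells (0.669 CPM). It was thus a macrophage transcript next to Ccl11, which had 1 macrophage UMI. Of 11 tested chemokines of the CXC list, 7 were higher in fibroblast-like cells (median 1.80, 31.4% of all genes) and 7 in macrophage-like cells, where 1 was lower (median 2.58, 28.6% of all genes higher). In fibroblast-like cells these included Cxcl1 at 2065 ± 223 CPM and Cxcl12, a ligand that retains leukocytes, at 784 ± 30.9 CPM. In F2, 2 of 8 tested genes of this list were higher and 4 lower (median -0.67, against 20.1% and 13.4% of all genes), Cxcl12 among the latter at 297 ± 38.5 CPM.

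The genes closest to each member were found by the Pearson correlation of log2(CPM + 10) over the 10 classes, which share libraries and depth. For Ccl7 the closest was Ccl8 (r = 0.940), followed by Fmn1, C5ar1 and Tgfbr1 among those reported. For Ccl8 the closest was Dse (r = 0.944), with Ccl7, Niacr1, Fmn1 and Lgals3bp behind it, for Ccl2 Abca9 (r = 0.898), with Fmn1, Cxcl1, Vcam1 and Pdia4, and for Ccl11 Gpc6 (r = 0.970), with Ggt5, Pi15, Twist1 and Pcdh18. Ccl11 had r from 0.156 to 0.277 with the other members, which had 0.827 to 0.940 with each other. Over the 10 points of 5 fibroblast clusters and 2 replicates this order broke up, with r = 0.799 between Ccl2 and Ccl7 and r = -0.741 between Ccl7 and Ccl8. There the closest genes were Sntb2, Kpna1, Sik1, Tnfaip6 and Pnp for Ccl2 (r = 0.970 for the first), Actg1, Tubb2a, Fnip1, Fbxo33 and Rtn4 for Ccl7 (0.957), Fxyd5, E430025E21Rik, Cspp1, Ppic and Hgf for Ccl8 (0.965), and Gsn, Fbln1, Fmo2, Mfap5 and Clec11a for Ccl11 (0.987). The pair of Ccl7 and Ccl8 was thus alike between classes and unlike between these 5 fibroblast clusters. No correlation was computed over the 7 finer clusters. There S1 was high in Ccl7 and low in Ccl8 (555 and 20.5 CPM). S6 was high in both (177 and 165 CPM) and S9 lowest in both (22.5 and 3.74 CPM).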

How the data were processed

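Drop-seq count tables of UMIs per gene and barcode, as deposited by the authors, were used for all 5 collections. STAR 2.6 and the build mm10 are named in the submitters' processing notes. The counting program, its annotation and the choice of barcodes are not given in the sources used here. Barcodes with at least 300 genes and at most 10% mitochondrial UMIs were clustered with scanpy 1.11.5 (Leiden), and clusters were named from marker lists. For each class or cluster, the UMI counts of a biological replicate were added up and tested with edgeR 4.0.16 (filterByExpr, TMM, quasi-likelihood F test, two-sided, Benjamini-Hochberg over all genes tested, threshold 0.05), with the biological replicate as a block, in R 4.3.3. The block follows from the labels, since every class of a biological replicate comes from the same collections. In 45 pairs of classes the deviations of same-numbered sums correlated at -0.0123 to 0.136 (median 0.0506). Tests were tried on simulated data. The members and all lists were chosen with earlier results of these data known. Named genes are the members, receptors with at least 10 UMIs, the 5 genes most like each member, and up to 4 called genes per list, highest in fibroblast-like cells; Ccl12, Il6, Ccl3 and Ccl4 were named after their values were seen, as were marker genes of clusters. Of the genes this rule names, 2 are not reported here. Alternatives were DESeq2 1.42.0, other scaling, filters, clusterings and left-out collections.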

Additional observations from a re-analysis of the deposited data

Results flagged for a closer look

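The 5 collections were compared in 61 combinations of a member and a group of cells. In 5 of these combinations 1 collection stood apart by Dixon's test, where chance alone gives about 1 in 20. Ccl11 in S0 was 373 CPM in 2A against 232 to 245 CPM in the others. Ccl7 was 982 CPM in S1 of 2C (others 406 to 566 CPM) and 96.3 CPM in S5 of 2C (others 20.2 to 40.6 CPM). In S9 of 2C, Ccl2 was 464 CPM (others 39.6 to 77.1 CPM) and Ccl8 was 22.7 CPM (others 0), the latter on 2 UMIs. Collection 2C thus held 4 of the 5.

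The members also had UMIs in barcodes that were left out. In the 1263 barcodes with under 300 genes (394353 UMIs), Ccl2 stood at 101 CPM, Ccl7 at 117 CPM, Ccl8 at 45.6 CPM and Ccl11 at 53.3 CPM, each above the 7.61 CPM that 3 counts give. In the 667 barcodes with over 10% mitochondrial UMIs (905687 UMIs), Ccl2 stood at 27.6 CPM, Ccl7 at 23.2 CPM, Ccl8 at 7.73 CPM and Ccl11 at 62.9 CPM, above a limit of 3.31 CPM. Over all retained cells the levels were 236, 184, 54.1 and 55.7 CPM, so Ccl11 was the member whose level did not fall in the barcodes rich in mitochondrial UMIs.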

How the results depend on the processing

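Of the log2 differences recomputed under the alternatives, 24 gained a call, 41 lost one and 19 changed direction with a call in either setting. The other 817 kept their side of the threshold, which includes changes of sign where neither value was called. All 93 counts of members called stayed within 1.5 times. Shares of cells with a UMI moved beyond their interval in 29 of 45 recomputations, sets of closest genes in 10 of 16 and CPM levels in 8 of 126. Without the replicate block, whose pairing comes from the shared collections, Ccl8 in M1 against M2 lost its call at 1.31, as did Ccl8 in F4 at 0.55, and no other call of a member changed. Ccl2 in macrophage-like against fibroblast-like cells was 0.69 with DESeq2 and 0.089 with at most 5% mitochondrial UMIs, both no longer called, and -0.041 to 1.03 when a collection or replicate was left out. Ccl8 in the same pair was 0.090 to 0.74 with a collection or replicate left out, and gained a call without 1B (0.67), 2B (0.62) or replicate 2 (0.74). Ccl11 in pericyte-like against fibroblast-like cells gained a call without scaling (0.93), from 200 genes per barcode (0.79), without a mitochondrial limit (1.95) and at the other resolution (1.16). It also gained one without replicate 2 (0.96), and was 0.30 to 0.96 with a collection or replicate left out. Ccl8 in F2 lost its call without a mitochondrial limit (-0.61) and without Scrublet-marked barcodes (-0.88). Ccl8 in M1 against M2 lost its call with DESeq2 (2.23) and without scaling (1.46), and was 0.057 to 4.43 with a collection or replicate left out.

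Besides Ccl2 in macrophage-like against fibroblast-like cells, given above, the changes of direction with a call in either setting were in F1, F3 and F4. Ccl8 in F5 was not called under any alternative and ran from -1.11 to 0.72. Also without a call, Ccl8 in S5 against S6 reached 0.064 and Ccl11 in F1 against F3 reached -0.16. Ccl2 in F1 turned to -0.37 from 200 genes, -0.074 from 500 genes, -2.45 at 5% mitochondrial UMIs, -2.47 with clusters and sums from separate UMIs, and -0.27 with immediate-early genes kept out of clustering. Ccl2 in F4 turned to -0.56 without a mitochondrial limit, -0.11 at 5% and -0.15 with separate UMIs. Ccl7 in F4 turned to -1.61 without a mitochondrial limit, -2.30 without Scrublet-marked barcodes, -1.05 with separate UMIs and -1.76 at the other resolution. Ccl8 in F4 turned to -0.034 without replicate 1 (-0.034 to 1.04 with a collection or replicate left out), -0.43 from 500 genes, -1.30 without a mitochondrial limit, -2.56 without Scrublet-marked barcodes and -3.32 at the other resolution. Ccl11 in F3 turned to -0.42 from 200 genes. The causes were not tested. No cluster matched F3 under either other mitochondrial limit, without Scrublet-marked barcodes, with separate UMIs or with immediate-early genes out of clustering, and none matched F5 from 200 or 500 genes, at 5% mitochondrial UMIs or with separate UMIs. Ccl8 and Ccl11, with 553 and 570 UMIs, are limited by depth.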

Other observations

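Within F2, cells were ranked in each replicate by their share of immediate-early and heat-shock UMIs and divided into 3 equal parts. Ccl2 in the lowest and highest part was 1711 and 277 CPM in replicate 1, and 1321 and 530 CPM in replicate 2. Ccl7 was 542 and 288 CPM in replicate 1, and 720 and 353 CPM in replicate 2. In F1 the order was the other way, with Ccl2 at 195 and 325 CPM in replicate 1 and 155 and 267 CPM in replicate 2. Ccl11 in F2 moved from 106 to 166 CPM in replicate 1 and from 204 to 177 CPM in replicate 2. These are levels without a test, and the immediate-early UMIs are part of the total that scales them.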
